A study of Homo sapiens with 16 samples.

Results

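The transforming growth factor beta (TGF-β) pathway was followed in RNA sequencing of 2 pancreatic cancer cell lines through 9 genes, TGFB1, TGFB2, INHBA, TGFBR1, TGFBR2, SMAD3, SMAD7, SKIL and TGFBI, out of the 63677 genes in the deposited count table. They were taken by gene symbol from the table of FPKM (fragments scaled to transcript length and to sequencing depth) and joined to the counts by Ensembl identifier, and all 9 were found. The cells were MiaPaCa2 (Mia-PaCa-2 in the labels) and PANC1 (PANC-1), both human pancreatic carcinoma lines, each of which is 1 established line and so stands for 1 tumor. Cells of each line received neither drug (control, called untreated here), 40 nM gemcitabine, 50 µM genistein or both together (co-treatment), and RNA was taken at 24 h. Gemcitabine is a nucleoside analog that blocks DNA synthesis, and genistein is a soy isoflavone that inhibits tyrosine kinases. Per the study's methods genistein was dissolved in DMSO and gemcitabine was not. Whether control cells received DMSO is not given in the labels. All groups grew in the same serum-containing medium, and no group received added TGF-β. Each of the 8 groups had 2 biological replicates, I and II, which gave 16 poly-A libraries.

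TGF-β ligands are secreted in a latent form, and once released they bring together a type II receptor (TGFBR2) and a type I receptor (TGFBR1), which phosphorylates SMAD2 and SMAD3. These transducers join SMAD4, enter the nucleus and switch genes on or off, among them their own inhibitors. In the pancreas the pathway restrains growth of normal epithelium and, in many carcinomas, its components are lost or it is linked to migration and matrix production.

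The libraries held between 12943482 and 31991860 reads assigned to genes. Of 8 markers of pancreatic ductal epithelium, 4 exceeded 1 FPKM in every MiaPaCa2 library and 6 in every PANC1 library, with the keratin KRT8 between 369 and 668 FPKM in MiaPaCa2 and between 586 and 1076.4 in PANC1. EPCAM, an epithelial adhesion molecule, was listed at 0 in all MiaPaCa2 libraries and between 7.71 and 12.8 FPKM in PANC1. None of 5 acinar and islet markers and none of 5 fibroblast and stellate markers exceeded 1 FPKM in every library of a line. PDGFRB came close in PANC1, at 0.958 to 4.77 FPKM and above 1 FPKM in 7 of 8 libraries. Of 4 markers of blood and endothelium only CD68 exceeded 1 FPKM in every library, at 14.2 to 37.6 FPKM in MiaPaCa2 and up to 221 in PANC1, while PTPRC and PECAM1 stayed at or near 0. Libraries differed in how counts moved with the GC content of genes, from -0.249 to 0.305 on the log2 scale per 10% GC, and values after correction for this trend are given where they end or add a call.

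On GRCh37, TGFB1 lies on the minus strand of chromosome 19 (41807492 to 41859827), TGFB2 on chromosome 1 (218518678 to 218617961), INHBA on the minus strand of chromosome 7 (41706766 to 41745432), TGFBR1 on chromosome 9 (101866320 to 101916474) and TGFBR2 on chromosome 3 (30648093 to 30735634). SMAD3 lies on chromosome 15 (67356101 to 67487511), SMAD7 on the minus strand of chromosome 18 (46446223 to 46477335), SKIL on chromosome 3 (170075130 to 170114623) and TGFBI on chromosome 5 (135364677 to 135399507). Exons of TGFB1 overlap HNRNPUL1 on the other strand over 6.59% of their length, and those of TGFB2 overlap TGFB2-AS1 over 11.6% and, on the same strand, TGFB2-OT1 over 22.7%. The strand setting of the counting is not given in the sources used here, so reads of these neighbors may not be told apart.

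The promoters of 4 members whose transcripts carry the results are shown, as the 250 bases before the start of the gene, from RefSeq on GRCh38.p14, 5′ to 3′. Capitals mark matches, on either strand, to the letters CAGACA and GTCTAGAC (forms of the SMAD binding element), TGANTCA (the AP-1 motif) and GGGCGG (the GC box, read as CCGCCC on the other strand).
TGFB1, chr19:41353923-41354172, minus strand: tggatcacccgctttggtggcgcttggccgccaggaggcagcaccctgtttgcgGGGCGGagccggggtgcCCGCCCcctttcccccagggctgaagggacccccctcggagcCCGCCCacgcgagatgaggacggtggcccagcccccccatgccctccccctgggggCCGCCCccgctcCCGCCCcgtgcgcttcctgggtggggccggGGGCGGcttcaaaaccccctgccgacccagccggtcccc
TGFB2, chr1:218345086-218345335, plus strand: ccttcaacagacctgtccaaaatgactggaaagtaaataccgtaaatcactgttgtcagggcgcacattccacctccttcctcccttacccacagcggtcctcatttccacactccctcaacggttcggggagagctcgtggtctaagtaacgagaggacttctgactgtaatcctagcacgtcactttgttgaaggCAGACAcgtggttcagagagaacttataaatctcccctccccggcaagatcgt
TGFBR2, chr3:30606106-30606355, plus strand: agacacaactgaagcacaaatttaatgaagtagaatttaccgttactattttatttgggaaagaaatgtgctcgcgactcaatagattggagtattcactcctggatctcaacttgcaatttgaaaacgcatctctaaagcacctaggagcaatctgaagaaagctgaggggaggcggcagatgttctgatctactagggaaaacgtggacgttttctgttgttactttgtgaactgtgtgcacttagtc
SMAD3, chr15:67065352-67065601, plus strand: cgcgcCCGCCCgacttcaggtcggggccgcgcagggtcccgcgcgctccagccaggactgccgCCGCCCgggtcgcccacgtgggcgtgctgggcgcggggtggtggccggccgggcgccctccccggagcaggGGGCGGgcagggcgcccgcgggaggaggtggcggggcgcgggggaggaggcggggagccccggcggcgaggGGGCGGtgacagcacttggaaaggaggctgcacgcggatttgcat
TGFB1 held 6 GC boxes in this stretch and SMAD3 held 4, TGFB2 held 1 CAGACA, and TGFBR2 held no match. All 9 members had a RefSeq promoter of 300 bases, and among all 35116 such promoters CAGACA was found in 16.9%, GTCTAGAC in 0.202%, TGANTCA in 7.71% and GGGCGG in 45%. In the whole window the GC box was also present in TGFBI and SKIL, CAGACA in INHBA just after the start, and none of the 4 motifs in TGFBR1 or SMAD7. These matches describe letters in a window, and no binding was measured.

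The untreated lines were compared first. PANC1 had higher transcript levels of the receptor TGFBR2, of the ligands TGFB1 and TGFB2, of the transducer SMAD3, of the inhibitors SMAD7 and SKIL, and of the secreted target TGFBI, while TGFBR1 showed no difference that passed the test. A gene was called when its limma-voom p, adjusted by the Benjamini-Hochberg method over all genes tested, was at most 0.05, its log2 fold change was at least 0.4 in size and the treated group, or here either line, had a mean above 1 FPKM. By this rule 7 of the 9 members were called, all higher in PANC1, against 52.2% of 17863 genes tested (4980 higher and 4343 lower). TGFB2 and INHBA had almost no counts in MiaPaCa2 and entered the test through PANC1 alone. In bulk RNA, fewer cells with a transcript and less transcript per cell cannot be told apart.

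TGFBR2, the ligand-binding receptor, had 0.0849 and 0.107 FPKM (8 and 8 counts) in the untreated MiaPaCa2 libraries and 13.6 and 15.1 FPKM (1590 and 2601 counts) in those of PANC1. The 2 lines did not come near each other, and under every treatment MiaPaCa2 stayed between 0.0652 and 0.228 FPKM and PANC1 between 11 and 15.1. The log2 difference was 7.13 ± 0.32 (SE; limma-voom adjusted p = 7.0e-10), or 140-fold. TGFBR1, its partner, had 4.6 and 4.64 FPKM in MiaPaCa2 and 3.64 and 5.17 in PANC1, ranges that overlapped, and the 95% interval of the log2 difference ran from -0.52 to 0.51.

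Among the ligands, TGFB1 had 20.1 and 20.2 FPKM in MiaPaCa2 and 55.2 and 44.1 in PANC1, a log2 difference of 1.86 ± 0.24 (limma-voom adjusted p = 1.3e-05). TGFB2, a second ligand isoform, was present in PANC1 at 8.29 and 9.77 FPKM (435 and 914 counts), whereas MiaPaCa2 had 3 and 1 counts. The ratio of counts, scaled to library size, was 190, with an exact 95% interval of 73.9 to 697 that covers counting error only. INHBA, which encodes the activin A subunit, had no count in any of the 8 MiaPaCa2 libraries and 11 and 17 counts in untreated PANC1 (0.0793 and 0.161 FPKM), which is at least 5.25-fold higher against a floor of 3 counts over the group, and it was not called because its level was below 1 FPKM.

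SMAD3, the receptor-activated transducer, had 33.3 and 31.4 FPKM in MiaPaCa2 and 204 and 164 in PANC1. It was the most abundant member of untreated MiaPaCa2, and the log2 difference between the lines was 2.64 ± 0.08 (limma-voom adjusted p = 1.9e-11). SMAD7, the inhibitory SMAD that brings ubiquitin ligases to the receptors, had 0.948 and 1.18 FPKM in MiaPaCa2 and 11.5 and 10.2 in PANC1, a log2 difference of 3.56 ± 0.20 (limma-voom adjusted p = 6.8e-09). TGFBI, an extracellular matrix protein induced by TGF-β, had 7.03 and 6.82 FPKM against 158 and 167, a log2 difference of 4.94 ± 0.14 (limma-voom adjusted p = 1.2e-11).

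SKIL, the SnoN corepressor of SMADs, was the least firm of these differences. Its untreated levels were 3.67 and 3.59 FPKM in MiaPaCa2 and 3.89 and 8.5 in PANC1, which did not overlap although the lower PANC1 value was close to MiaPaCa2. The log2 difference was 0.93 ± 0.33 (limma-voom adjusted p = 0.0247). It was no longer called without MiaPaCa2 control I (0.88, limma-voom adjusted p = 0.123), without MiaPaCa2 control II (0.93, limma-voom adjusted p = 0.087) or without PANC1 control II (0.45, limma-voom adjusted p = 0.246), nor on the log2(FPKM + 1) scale (0.56, limma-trend adjusted p = 0.151).

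On the FPKM scale, which divides by transcript length, the order in untreated MiaPaCa2 was SMAD3, TGFB1, TGFBI, TGFBR1, SKIL and SMAD7, with no overlap between neighbors, followed by TGFB2 and TGFBR2, whose values overlapped, and INHBA. In untreated PANC1 it was SMAD3, TGFBI, TGFB1, TGFBR2, SMAD7, TGFB2, SKIL, TGFBR1 and INHBA. There SMAD3 overlapped TGFBI, TGFB2 overlapped SKIL, and SKIL overlapped TGFBR1. TGFBI moved from the third place in MiaPaCa2 to the second in PANC1, and TGFBR2 from the eighth to the fourth. The order of TGFB2 and TGFBR2 in MiaPaCa2 rests on 1 library that lists TGFB2 at 0.303 FPKM. By counts it was the reverse, 8 and 8 for TGFBR2 against 3 and 1 for TGFB2.

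**Figure D1:**
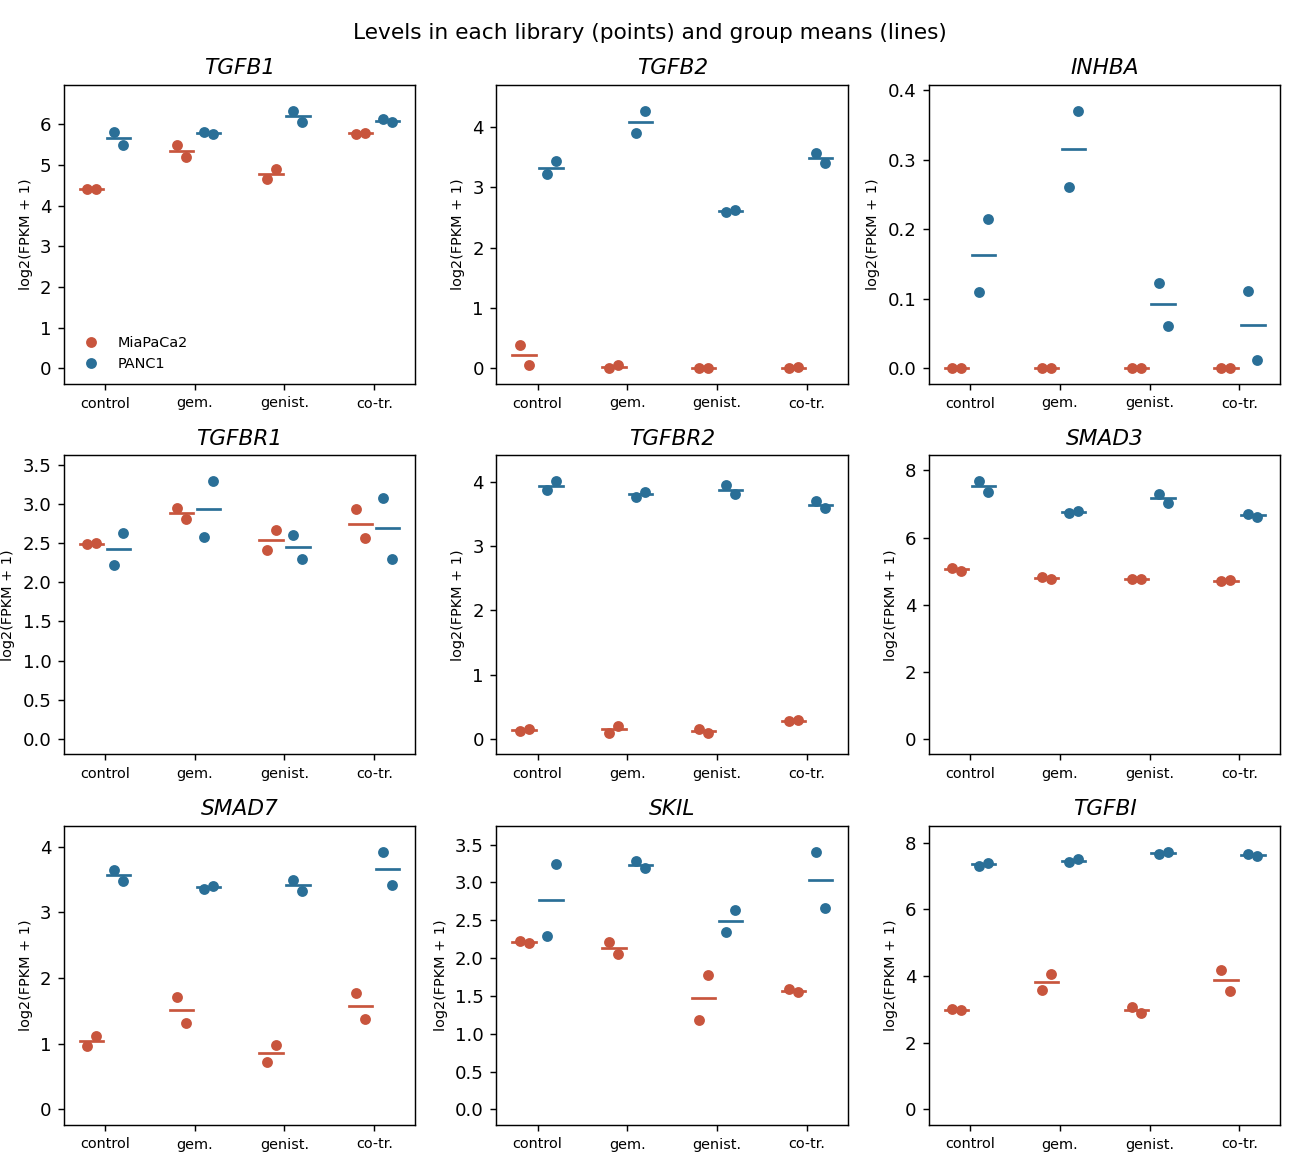
Levels of the 9 genes, as log2(FPKM + 1), in each of the 16 libraries (points, 2 per group) by treatment for MiaPaCa2 and PANC1, with group means as lines. TGFBR2, TGFB2 and TGFBI separate the lines under every treatment, TGFBR1 overlaps between them, and TGFB1 rises in MiaPaCa2 with gemcitabine, 20.1 and 20.2 FPKM in control against 44.3 and 35.6.

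The rest of the pathway was described with 69 further genes in 6 roles, of which 64 were tested between the untreated lines. Of these 31 were called higher in PANC1 and 12 lower, 67.2% in all, beside 52.2% of all genes tested. All 7 tested ligands and latent complex proteins were called higher in PANC1, among them INHBB (log2 difference 5.78) and the latent TGF-β binding proteins LTBP1 (2.79) and LTBP2 (2.80). Of 6 other SMAD transducers and partners, 4 were called lower in PANC1 and none higher, including SMAD4, the common partner of SMAD2 and SMAD3 (-0.85). The 6 largest fitted differences were in the collagen gene COL1A1, in INHBB, in the cell cycle inhibitor CDKN1A, and in THBS1, which activates latent TGF-β, the endocytic adaptor DAB2 and PTHLH (parathyroid hormone-like hormone). The last 3 had at most 1 count in an untreated MiaPaCa2 library and entered the test through PANC1, so their calls and their place in this order follow from that. COL1A1 had 0.655 and 0.443 FPKM in MiaPaCa2 and 99.7 and 77.6 in PANC1. THBS1 had 1 and 0 counts in MiaPaCa2 and 705 and 1097 in PANC1, DAB2 had none in MiaPaCa2 and 93 and 161 in PANC1, at least 47.6-fold higher, and PTHLH had 1 and 0 against 35 and 68. CDKN1A differed by 4.41 on the log2 scale. Against this direction, the pseudoreceptor BAMBI (-3.82), the co-receptor TGFBR3 (-2.20) and the ubiquitin ligase SMURF2 (-2.22) were lower in PANC1.

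Gemcitabine raised TGFB1 and TGFBI in MiaPaCa2. Of the 7 members tested in this line these 2 were called, both higher, against 29.5% of 16064 genes tested, and the median log2 change of the 7 was 0.29 where that of all genes was -0.01. INHBA and TGFB2, with at most 3 counts in any MiaPaCa2 library, were left out by the filter on low counts. TGFB1 went from 20.1 and 20.2 FPKM in control to 44.3 and 35.6 with gemcitabine, without overlap, a log2 change of 1.31 ± 0.14 (limma-voom adjusted p = 3.4e-05) or 2.47-fold. TGFBI went from 7.03 and 6.82 FPKM to 11 and 15.8, also without overlap, a log2 change of 0.87 ± 0.16 (limma-voom adjusted p = 0.00123) or 1.82-fold.

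Exons of TGFB1 are 62.6% GC, and the GC trend of the libraries moved with this treatment. The slope was -0.249 and -0.152 on the log2 scale per 10% GC in the MiaPaCa2 controls and 0.154 and 0.0584 with gemcitabine. After correction for the trend the log2 change of TGFB1 was 0.86 (limma-voom adjusted p = 7.3e-06) and that of TGFBI 0.71 (limma-voom adjusted p = 8.5e-04), and both were still called. The same correction added 2 calls among members of low GC content, TGFBR1 (0.65, limma-voom adjusted p = 1.0e-04) and SKIL (0.56, limma-voom adjusted p = 0.00428).

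The inhibitor SMAD7 had 0.948 and 1.18 FPKM in the MiaPaCa2 controls and 2.26 and 1.48 with gemcitabine (31, 19, 48 and 41 counts). Its levels did not overlap, but the log2 change of 0.64 ± 0.28 did not pass the test (limma-voom adjusted p = 0.0845). SMAD3 had 33.3 and 31.4 FPKM in control and 27.6 and 26.2 with gemcitabine, and its log2 change was -0.19 ± 0.09 (limma-voom adjusted p = 0.104). TGFBR1, SKIL and TGFBR2 had log2 changes of 0.29, 0.09 and -0.05, none past the test.

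In PANC1 gemcitabine lowered SMAD3. It was the only member called of 9, against 7.52% of 16909 genes tested, and the members' median log2 change was 0.09 beside 0.03 for all genes. SMAD3 had 805 and 756 CPM (counts scaled to library size) in control and 390 and 395 CPM with gemcitabine. These were 16143 and 23143 counts against 7302 and 8345, and the groups did not overlap. The log2 change was -0.91 ± 0.07 (limma-voom adjusted p = 0.00101), a level 0.533 times that of control, and it was called in all 10 alternative fits and without each of the 4 libraries in turn.

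SMAD7 in PANC1 had 21.4 and 19.8 CPM in control and 13.4 and 14 with gemcitabine. The difference fell just short of the test, with a log2 change of -0.51 ± 0.13 (limma-voom adjusted p = 0.0506), and it was called in 5 of 10 alternative fits, among them DESeq2 (-0.55, adjusted p = 0.0261) and the fit after GC correction (-0.47, limma-voom adjusted p = 0.00859). The smallest change among the alternatives was -0.18, and SMAD7 had 11.5 and 10.2 FPKM in control and 9.22 and 9.62 with gemcitabine. TGFB2 had 8.29 and 9.77 FPKM in control and 14 and 18.3 with gemcitabine, the highest of the 4 PANC1 groups, with a log2 change of 0.62 ± 0.18 (limma-voom adjusted p = 0.0792) that DESeq2 called (0.58, adjusted p = 0.0446). Without PANC1 control II it was called by limma-voom as well (0.85, adjusted p = 0.0282). TGFB1, at 55.2 and 44.1 FPKM in control and 54.8 and 53.4 with gemcitabine, overlapped between the groups, and the 95% interval of its log2 change ran from -0.41 to 0.58. TGFBI had a log2 change of -0.02 with a 95% interval of -0.20 to 0.15.

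The responses of both lines to gemcitabine were then set against each other in 1 model of all 16 libraries. TGFB2 and INHBA, with at most 3 counts in any MiaPaCa2 library, entered this model through PANC1 alone and had no MiaPaCa2 response to compare. The log2 response in PANC1 minus that in MiaPaCa2 passed the test for 4 of the 9 members, namely TGFB1, TGFBI, SMAD3 and SMAD7, each negative, against 15.3% of 17863 genes tested. For TGFB1 the difference was -1.32 ± 0.32 (limma-voom adjusted p = 0.0168), the response being 1.31 in MiaPaCa2 and 0.09 in PANC1 within the fits of single lines. It did not pass without MiaPaCa2 control I (-1.22, limma-voom adjusted p = 0.0943), MiaPaCa2 control II (-1.38, limma-voom adjusted p = 0.0533), MiaPaCa2 gemcitabine I (-1.24, limma-voom adjusted p = 0.072) or PANC1 gemcitabine II (-1.16, limma-voom adjusted p = 0.0729). After GC correction the TGFB1 difference was -0.72 and passed (limma-voom adjusted p = 2.9e-04), and TGFBR1, at -0.11 before it, passed as well (-0.63, limma-voom adjusted p = 0.00556).

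TGFBI differed by -0.99 ± 0.18 (limma-voom adjusted p = 0.00469), from a response of 0.87 in MiaPaCa2 to -0.02 in PANC1. For SMAD3 the difference was -0.81 ± 0.11 (limma-voom adjusted p = 8.9e-04), where the responses were -0.19 in MiaPaCa2 and -0.91 in PANC1. For SMAD7 it was -1.24 ± 0.27 (limma-voom adjusted p = 0.0102), with responses of opposite sign, 0.64 in MiaPaCa2 and -0.51 in PANC1, neither of which passed on its own. The SMAD7 difference did not pass without MiaPaCa2 control II (-1.08, limma-voom adjusted p = 0.0619) or without MiaPaCa2 gemcitabine I (-1.17, limma-voom adjusted p = 0.0533). On the log2(FPKM + 1) scale the difference passed for TGFB1 and not for TGFBI, SMAD3 or SMAD7, and TGFB2, nearly without counts in MiaPaCa2, passed through its change in PANC1.

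**Figure D2:**
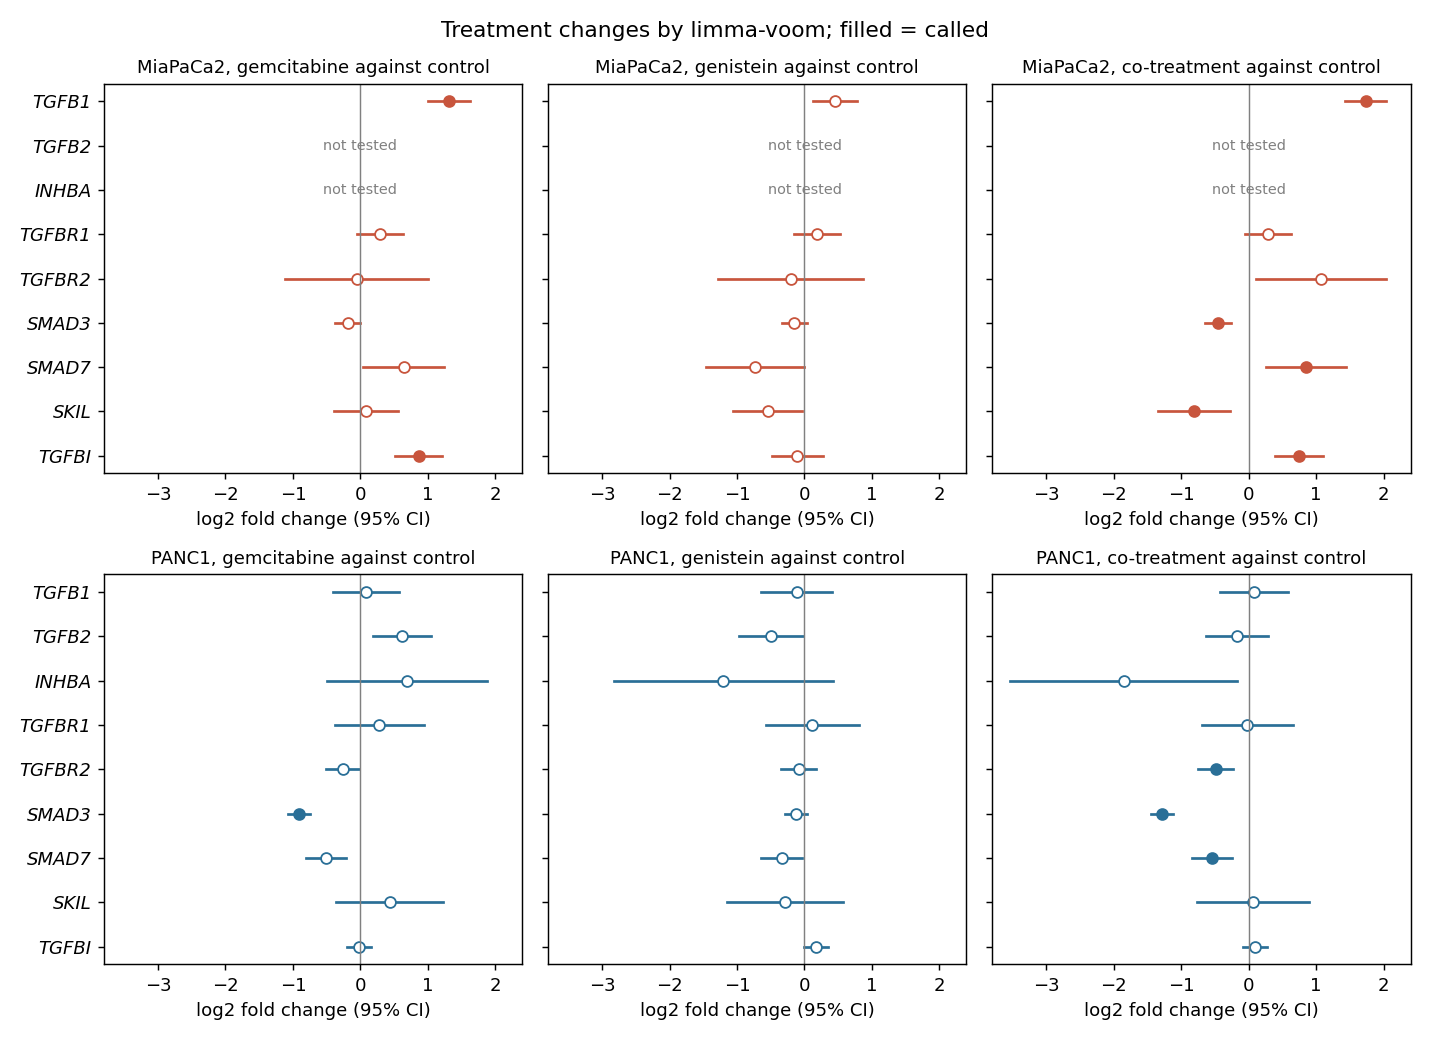
Log2 fold changes of the 9 genes against control of the same line (x axis) with 95% confidence intervals from limma-voom, for 3 treatments in MiaPaCa2 (upper row) and PANC1 (lower row), where filled points are called. TGFB1 and TGFBI are filled to the right in MiaPaCa2 with gemcitabine and co-treatment, and SMAD3 is filled to the left in PANC1, at -0.91 with gemcitabine and -1.28 with co-treatment.

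Among the other pathway genes, gemcitabine changed 29 of the 58 tested in MiaPaCa2, with 19 rising and 10 falling, which is 50% beside 29.5% of all genes. In PANC1 it changed 9 of 63, with 6 rising and 3 falling, or 14.3% beside 7.52% of all genes. In simulated data, changes of 1 on the log2 scale passed the adjusted p for 94% of genes in MiaPaCa2 and 67.2% in PANC1. Counts of calls in the 2 lines are therefore not on equal terms. In MiaPaCa2 all 7 tested ligand and latent complex genes were called, 6 of them higher, with INHBB at 2.52 and GDF11 at 1.01 on the log2 scale. The largest changes called there were in NEDD9, a scaffold protein of focal adhesions (3.08), CDKN1A (3.07), fibronectin (FN1, 2.83) and INHBB. NEDD9 had 9 and 7 counts in control and passed the low-count filter through treated libraries, so its call and its place follow from that. INHBB had 7 and 12 counts in control, 8 and 14 with genistein and 64 and 59 with gemcitabine. It passed the filter through the gemcitabine and co-treated libraries, where it was high. Its call, its place and its part in the 7 called ligand and latent complex genes follow from that. CDKN1A is also a textbook target of p53, and members of this list answer to other pathways as well. Which pathway these changes followed was not tested. FN1 was low throughout, at 0.105 and 0.606 FPKM in control and 2.03 and 1.39 with gemcitabine.

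Only 2 genes were called with the same sign by both lines, CTGF, a matricellular growth factor (1.54 in MiaPaCa2 and 1.48 in PANC1), and LTBP2 (-0.92 and -0.57), and no gene was called with opposite signs. These are 3.51% of the 57 pathway genes tested in both lines, beside 2.75% of all 15095 genes tested in both. NEDD9 also rose in PANC1, by 4.14 on the log2 scale, from 1 and 3 counts in control to 30 and 32 with gemcitabine. At 0.55 and 0.338 FPKM with gemcitabine it was under the level for a call there. In PANC1 too it passed the low-count filter through treated libraries. CTGF had 2.78 and 2.84 FPKM in the MiaPaCa2 controls and 8.71 and 9.25 with gemcitabine, and 16.7 and 17.2 against 49.7 and 53.3 in PANC1. In PANC1 the largest changes called were in CTGF, the transcription factors BHLHE40 (1.42) and ZEB2 (1.22), and the actin-binding protein gene TAGLN (-1.15). For 19 of 64 tested pathway genes the response differed between the lines, 8 more positive and 11 more negative in PANC1, which is 29.7% beside 15.3% of all genes, with CDKN1A at -2.75 and INHBB at -3.01.

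**Figure D3:**
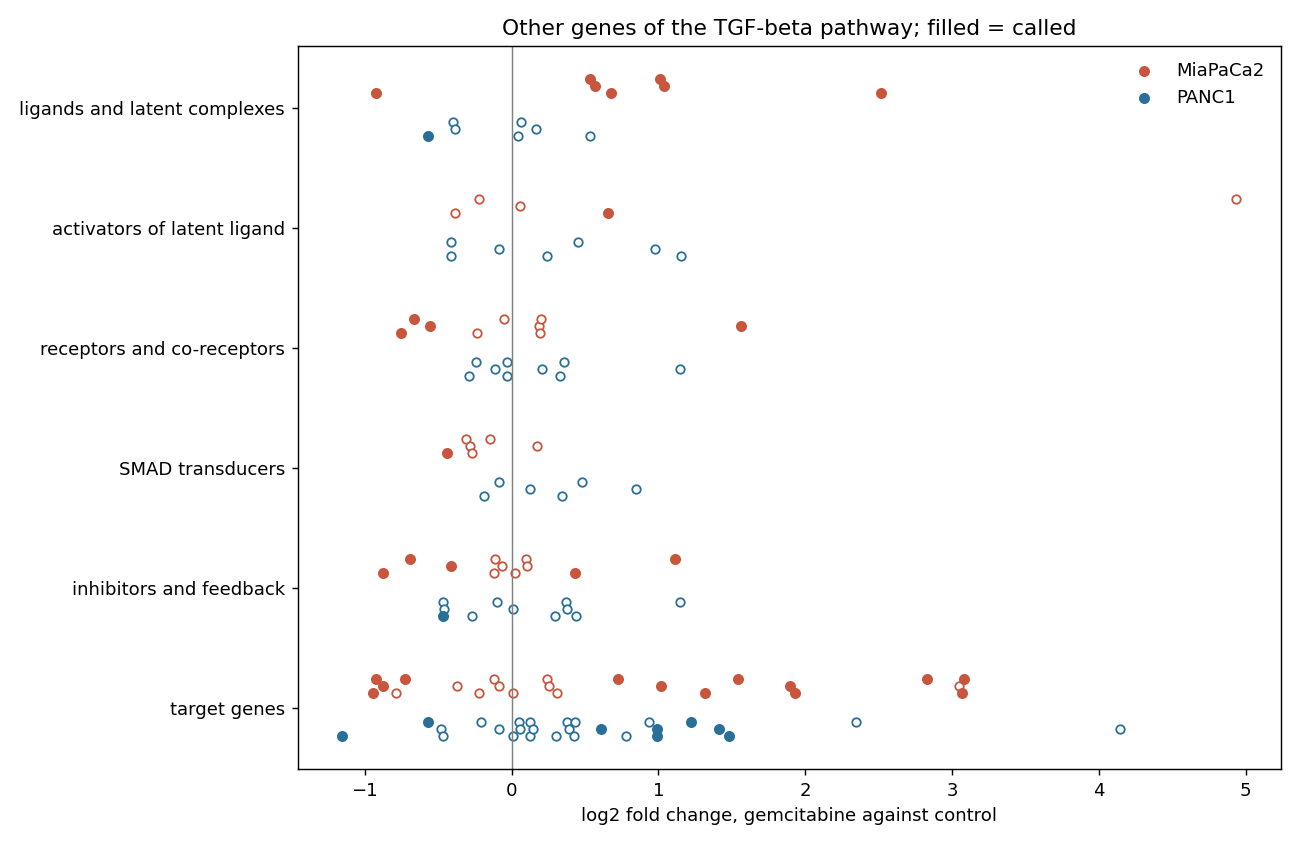
Log2 fold change with gemcitabine (x axis) of the other tested pathway genes, 1 point per gene, by role (y axis) and cell line, where filled points are called. In MiaPaCa2 all 7 ligand and latent complex genes are filled and 6 lie to the right of 0, and in PANC1 only LTBP2 of that role is filled, to the left, at -0.57. INHBB in MiaPaCa2 passed the low-count filter through libraries with gemcitabine. TGFB3 lies at 0.57 in MiaPaCa2 and, not called, at 0.53 in PANC1. The test of the difference between the lines passed for 3 of these 7 genes.

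Genistein alone changed no member past the test in the limma-voom fit without GC correction. In MiaPaCa2 0 of 7 members were called, against 8.3% of 16064 genes, while 3 had an unadjusted limma-voom p of at most 0.05, edgeR called 0 and DESeq2 called 1. The median log2 change was -0.15 for the members and 0.00 for all genes. TGFB1 had 24.2 and 29 FPKM with genistein, above both controls, with a log2 change of 0.45 ± 0.15 (limma-voom adjusted p = 0.0745), and DESeq2 called it (0.46, adjusted p = 0.049). After GC correction 2 members were called, TGFB1 (0.46, limma-voom adjusted p = 0.00458) and TGFBR1 (0.48, limma-voom adjusted p = 0.00347), whose change without it was 0.18. SKIL had 1.27 and 2.42 FPKM, below both controls, with a log2 change of -0.54 ± 0.24 (limma-voom adjusted p = 0.157). SMAD7 had 11 and 23 counts with genistein and 31 and 19 in control, which overlapped, and its log2 change was -0.73 ± 0.33 (limma-voom adjusted p = 0.178).

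In PANC1 genistein gave 0 calls among the 9 members, against 0.0591% of 16909 genes tested (10 genes). Unadjusted limma-voom p was at most 0.05 for 2 members, and neither edgeR nor DESeq2 called any. TGFB2 had 5.03 and 5.2 FPKM with genistein, below both controls, with a log2 change of -0.50 ± 0.20 (limma-voom adjusted p = 0.24). It was called after GC correction (-0.59, limma-voom adjusted p = 0.00806). For TGFB1 the scales disagreed in direction. Its FPKM was 79.7 and 65.7 with genistein, above both controls, whereas its CPM were 50.4 and 51 against 67.4 and 51, and the log2 change was -0.12 by limma-voom on counts, 0.54 on the log2(FPKM + 1) scale and 0.34 after GC correction, where it stayed under the fold limit (limma-voom adjusted p = 0.0313). The members' median was -0.13 and that of all genes 0.05.

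The difference between the lines in the response to genistein was tested in the same model. None of 9 members passed, TGFB2 and INHBA again having no MiaPaCa2 response to compare, against 0.0336% of 17863 genes tested, none had an unadjusted limma-voom p of at most 0.05, and edgeR and DESeq2 called none. The interval was wide, for TGFB1 from -1.34 to 0.11 on the log2 scale around -0.62, for TGFBI from -0.20 to 0.65. Among the other pathway genes genistein changed 5 of 58 in MiaPaCa2, with 3 rising and 2 falling, or 8.62% beside 8.3% of all genes, and 0 of 63 in PANC1 beside 0.0591%. The largest in MiaPaCa2 were CDKN1A (1.51), TGFB3 (-1.23), CTGF (0.86) and GDF11 (0.73). TGFB3, the third ligand isoform, had 3.47 and 3.27 FPKM in control and 1.65 and 1.85 with genistein.

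Co-treatment of MiaPaCa2 changed 5 of the 7 tested members, 3 higher and 2 lower, against 40.5% of 16064 genes tested. The median log2 change was 0.74 for the members and -0.01 for all genes. TGFB1 reached 53 and 54.5 FPKM, above all other MiaPaCa2 libraries, a log2 change of 1.74 ± 0.14 (limma-voom adjusted p = 1.2e-06) or 3.33-fold. TGFBI had 17.1 and 10.8 FPKM, above both controls, a log2 change of 0.74 ± 0.16 (limma-voom adjusted p = 0.00215). After GC correction these were 1.26 and 0.51, both still called.

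SMAD7 had 2.43 and 1.61 FPKM (51 and 43 counts) with co-treatment, above both controls, and rose by 0.85 ± 0.28 on the log2 scale (limma-voom adjusted p = 0.0197). The call was lost without MiaPaCa2 control I (1.05, limma-voom adjusted p = 0.0545), without MiaPaCa2 control II (0.68, limma-voom adjusted p = 0.128), without MiaPaCa2 co-treatment I (0.67, limma-voom adjusted p = 0.112) and after GC correction (0.53, limma-voom adjusted p = 0.0767), and it stood in 6 of 10 alternative fits. SMAD3 had 25 and 25.5 FPKM, below both controls, and fell by 0.45 ± 0.09 on the log2 scale (limma-voom adjusted p = 0.00105). Without MiaPaCa2 co-treatment II the change was -0.36, under the fold limit, with limma-voom adjusted p = 0.00671, and SMAD3 was called in 7 of 10 alternative fits.

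SKIL had 2.02 and 1.92 FPKM with co-treatment against 3.67 and 3.59 in control, and fell by 0.81 ± 0.25 on the log2 scale (limma-voom adjusted p = 0.0142). Its exons are 35.8% GC, the lowest among the members, and after GC correction the log2 change was -0.05 (limma-voom adjusted p = 0.776). The slope with GC was 0.0512 and 0.305 in the co-treated MiaPaCa2 libraries. The call was lost without MiaPaCa2 control I (-0.81, limma-voom adjusted p = 0.0617), and without MiaPaCa2 co-treatment II the change was -0.42 (limma-voom adjusted p = 0.172). In all, SKIL was called in 7 of 10 alternative fits. TGFBR2 had 16 and 20 counts against 8 and 8 in control (0.209 and 0.228 FPKM), and its log2 change of 1.07 ± 0.44 did not pass (limma-voom adjusted p = 0.0584). In this line TGFBR2 passed the low-count filter through treated libraries, chiefly the co-treated ones where it was highest, so the direction of this change carries no weight. TGFBR1 had 6.62 and 4.92 FPKM, above both controls, with a log2 change of 0.29 ± 0.16 (limma-voom adjusted p = 0.134). It was called after GC correction (0.83, limma-voom adjusted p = 6.9e-06) and without MiaPaCa2 co-treatment II (0.57, limma-voom adjusted p = 0.0022).

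In PANC1 co-treatment lowered SMAD3, SMAD7 and TGFBR2. These were 3 of 9 members, against 17.1% of 16909 genes tested, with a median log2 change of -0.17 for the members and 0.01 for all genes. SMAD3 had 299 and 313 CPM with co-treatment, below every control, genistein and gemcitabine library of PANC1, and its log2 change was -1.28 ± 0.07 (limma-voom adjusted p = 1.5e-04), a level 0.41 times that of control. It was called in all 11 alternative fits and without each of the 4 libraries in turn.

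TGFBR2 had 12 and 11 FPKM with co-treatment against 13.6 and 15.1 in control, a log2 change of -0.49 ± 0.11 (limma-voom adjusted p = 0.0212) or 0.713 times control. The groups did not overlap, but the call was lost without PANC1 control II (-0.46, limma-voom adjusted p = 0.0503), PANC1 co-treatment I (-0.54, limma-voom adjusted p = 0.0534) or PANC1 co-treatment II (-0.43, limma-voom adjusted p = 0.0931). It was called in 8 of 11 alternative fits and not with scaling by library size alone (-0.33, limma-voom adjusted p = 0.0788). SMAD7 had 13.3 and 13.8 CPM against 21.4 and 19.8, a log2 change of -0.54 ± 0.13 (limma-voom adjusted p = 0.025). On the log2(FPKM + 1) scale the direction turned, with a change of 0.10 (limma-trend adjusted p = 0.766), since the FPKM were 14.2 and 9.64 against 11.5 and 10.2. The call was also lost without PANC1 control I (-0.51, limma-voom adjusted p = 0.0544), PANC1 co-treatment I (-0.54, limma-voom adjusted p = 0.0923) or PANC1 co-treatment II (-0.54, limma-voom adjusted p = 0.0821), and with scaling by library size alone (-0.38, limma-voom adjusted p = 0.0659). TGFB1 (0.08), TGFBI (0.10), SKIL (0.06) and TGFBR1 (-0.02) had log2 changes whose intervals spanned 0. INHBA had 4 and 1 counts with co-treatment and 11 and 17 in control, and its log2 change of -1.85 ± 0.73 did not pass (limma-voom adjusted p = 0.116).

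What genistein added to gemcitabine was asked by setting co-treatment against gemcitabine alone. In MiaPaCa2 SKIL was the 1 member called of 7, lower with co-treatment, against 5.88% of 16064 genes, and both medians, of the members and of all genes, were within 0.01 of 0 on the log2 scale. SKIL had 3.63 and 3.17 FPKM with gemcitabine and 2.02 and 1.92 with co-treatment, a log2 change of -0.90 ± 0.24 (limma-voom adjusted p = 0.0408). It was lost without MiaPaCa2 gemcitabine I (-0.88, limma-voom adjusted p = 0.226), MiaPaCa2 gemcitabine II (-0.92, limma-voom adjusted p = 0.18) or MiaPaCa2 co-treatment II (-0.52, limma-voom adjusted p = 0.237). After GC correction it was -0.62 and still called (limma-voom adjusted p = 0.012), as in 7 of 11 alternative fits. TGFB1 was higher in both co-treated libraries than in either with gemcitabine alone, with a log2 change of 0.43 ± 0.12 that just missed the test (limma-voom adjusted p = 0.0515). It was called after GC correction (0.40, limma-voom adjusted p = 0.00303) and without MiaPaCa2 co-treatment I (0.57, limma-voom adjusted p = 0.00501).

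In PANC1 co-treatment against gemcitabine gave 0 calls among 9 members, against 0.0177% of 16909 genes (3 genes). The unadjusted limma-voom p was at most 0.05 for 3 members, edgeR called 0 and DESeq2 called 1. TGFB2 was lower in both co-treated libraries, 10.9 and 9.58 FPKM, than with gemcitabine, 14 and 18.3 FPKM, with a log2 change of -0.79 ± 0.19 (limma-voom adjusted p = 0.167), and it was the member that DESeq2 called (-0.77, adjusted p = 0.0262). It was called in 5 of 11 alternative fits, GC correction among them (-0.64, limma-voom adjusted p = 0.00557). SMAD3 had a log2 change of -0.38 ± 0.08 (limma-voom adjusted p = 0.121), and after GC correction it was -0.47 and called (limma-voom adjusted p = 0.00307). INHBA had 14 and 20 counts with gemcitabine and 4 and 1 with co-treatment, a log2 change of -2.54 ± 0.72 (limma-voom adjusted p = 0.207). The members' median was -0.30 beside -0.02 for all genes.

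The interaction of gemcitabine with genistein, which asks whether the combined change departs from the sum of the single changes on the log2 scale, passed for no member. In MiaPaCa2 0 of 7 passed, against 0.0249% of 16064 genes, with 1 member at an unadjusted limma-voom p of at most 0.05 and none called by edgeR or DESeq2. In PANC1 0 of 9 passed, against 0% of 16909 genes, 832 of which had an unadjusted limma-voom p of at most 0.05, while edgeR called 0 genes and DESeq2 called 4, none of them a member. TGFB1 had an interaction of -0.02 (95% interval -0.44 to 0.40) in MiaPaCa2 and of 0.11 (-0.63 to 0.85) in PANC1, and SMAD3 of -0.11 (-0.39 to 0.16) and -0.25 (-0.49 to -0.02). SMAD7 in MiaPaCa2 had the largest among members with more than 10 counts in every library of that line, 0.94 ± 0.41 (limma-voom adjusted p = 0.587).

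Of the other pathway genes, co-treatment changed 35 of 58 in MiaPaCa2, with 18 rising and 17 falling, which is 60.3% beside 40.5% of all genes. In PANC1 it changed 15 of 63, with 9 rising and 6 falling, or 23.8% beside 17.1% of all genes. Of the 57 tested in both lines 8 (14%) were called with the same sign in each, beside 8.96% of all genes tested in both, and 1, COL1A1, was called with opposite signs, higher in MiaPaCa2 (1.07) and lower in PANC1 (-0.84). By the smaller of both changes the leading ones were PTHLH (4.64 in MiaPaCa2, from 1 and 0 counts in control to 23 and 21, and 1.46 in PANC1), BAMBI (1.15 and 1.83), LTBP2 (-1.92 and -0.87), TGFBR3 (-0.92 and -0.73) and CTGF (1.86 and 0.72). In MiaPaCa2 PTHLH passed the low-count filter through its co-treated libraries, so its call there and its place in this order follow from that. BAMBI, a decoy receptor without kinase activity, had 4.08 and 4.46 FPKM in the MiaPaCa2 controls and 9.7 and 10.5 with co-treatment, and 0.316 and 0.291 against 1.3 and 1.15 in PANC1. LTBP2 had 9.28 and 10.3 FPKM against 3.12 and 2.86 in MiaPaCa2, and 77.7 and 62 against 42 and 42.7 in PANC1.

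The largest co-treatment changes called in MiaPaCa2 were in LRRC32, which tethers latent TGF-β to the cell surface, NEDD9, PTHLH and CDKN1A. LRRC32 had 0 and 1 counts in control and 49 and 51 with co-treatment (1.1 and 1.42 FPKM), and NEDD9 had 9 and 7 counts in control and 237 and 237. With so few counts in control, LRRC32, NEDD9 and PTHLH passed the low-count filter through treated libraries, so their calls and their places follow from that. CDKN1A rose by 4.07 on the log2 scale. In PANC1 they were in ITGB6, an integrin subunit that activates latent TGF-β, BAMBI, PTHLH and BHLHE40. ITGB6 had 12 and 13 counts in control and 27 and 49 with co-treatment, and it too passed the filter through treated libraries. NEDD9 rose by 5.26 on the log2 scale in PANC1, from 1 and 3 counts in control to 61 and 55 with co-treatment. At 0.859 and 0.816 FPKM it was under the level for a call there. Of the other SMAD transducers and partners 4 of 6 were called lower in MiaPaCa2 with co-treatment, namely SMAD2 (-0.61), SMAD4 (-0.42), SMAD5 (-0.48) and ZFYVE9 (-0.63), and 0 of 6 in PANC1.

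Against gemcitabine alone, co-treatment changed 11 of 58 other pathway genes in MiaPaCa2, 8 higher and 3 lower, or 19% beside 5.88% of all genes, with the largest called changes in NEDD9 (1.68), PTHLH (1.59), the transcription factor SNAI2 (1.25) and FN1 (1.11), and 0 of 63 in PANC1. PTHLH had 6 and 10 counts with gemcitabine and 23 and 21 with co-treatment, and it passed the low-count filter through the co-treated libraries.

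Genes whose group means followed those of the members were sought by Pearson correlation of mean log2 CPM over the 8 groups, after centering each line. For TGFB1 the closest were DOK4 (r = 0.997) and NPTX1 (0.996), for SMAD3 RNF213 (0.994) and KDELR1 (0.991), and for SMAD7 KCNN1 (0.977) and CDS1 (0.975). For TGFB2 they were ZNF793 (0.985) and RP1-281H8.3 (0.982), for SKIL KIAA1614 (0.983) and KCNIP2-AS1 (0.975), for TGFBR1 RP11-38O23.4 (0.979) and EPGN (0.956), for TGFBR2 CES1 (0.969) and RP11-326F20.5 (0.966), and for INHBA RP11-399D6.2 (0.994) and GPC3 (0.992). INHBA had no count in any MiaPaCa2 library, so its correlations rest on the PANC1 groups, at 1 to 20 counts per library. In MiaPaCa2 the points of TGFB2 (at most 3 counts) and TGFBR2 (6 to 20 counts) rest on few reads. All these correlations are the highest among all genes tested over 8 points that share libraries, depth and GC trend, and they are given as a description.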

How the data were processed

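RNA of 16 libraries, 2 cell lines with 4 treatments and 2 biological replicates each, was sequenced as single reads from poly-A libraries. The authors deposited counts, whole numbers of reads per gene without normalization, and FPKM per gene. Per the submitters' processing notes and the study's methods, TopHat2 2.0.4 aligned the reads to GRCh37, Picard 1.29 took out those that aligned more than once, and HTSeq 0.6.1 and Cufflinks 2.1.1 gave the counts and the FPKM. The annotation release is not given in the sources used here, nor is the strand setting of HTSeq. FPKM of isoforms were not used. Of 63501 genes with FPKM, 128 had several rows, of which the first was taken.

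Counts were filtered with filterByExpr, scaled by TMM (edgeR 4.0.16) and fitted with limma-voom (limma 3.58.1, R 4.3.3), the method of the study. The 8 libraries of a line shared a model, and all 16 entered the comparison of the lines. Benjamini-Hochberg adjustment of p-values ran over all genes tested. A gene was called at adjusted p of 0.05 or less, with a log2 change of 0.4 or more in size and treated libraries above 1 FPKM on average. Interactions and differences between responses were judged by the adjusted p alone. Tests were two-sided. Comparisons with control in a line share the control libraries. Gene positions, exon overlaps and GC content come from GENCODE release 44 lifted to GRCh37.

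Alternatives were edgeR's quasi-likelihood test, DESeq2 (1.42.0), other scalings, no filter, log2(FPKM + 1) with limma-trend, all libraries in one model, a replicate block, GC correction (loess, span 0.3), the adjusted p alone and each library left out. As groups hold 2 libraries, limma borrows information on spread across genes. All 9 members were named in every comparison, and the other pathway genes by role and by the size of their changes. Some genes of these lists and searches are not reported here. The members and lists were chosen with earlier results of these data known. Scripts were tested on simulated data.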

Additional observations from a re-analysis of the deposited data

Results flagged for a closer look

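Of the 9 genes, 4 had a response to gemcitabine that differed between the lines in a test of the difference itself (limma-voom over all 16 libraries, adjusted p alone). On the log2 scale, the response in PANC1 minus that in MiaPaCa2 was -1.32 for TGFB1, -0.99 for TGFBI, -0.81 for SMAD3 and -1.24 for SMAD7. TGFB1 and TGFBI rose in MiaPaCa2 and SMAD3 fell in PANC1, and for SMAD7 neither line's response passed on its own. Groups of 2 libraries are too small to look for single libraries far from the rest.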

How the results depend on the processing

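With the GC correction, with or without the replicate block, the counts of members called went from 2 to 4 with gemcitabine, 0 to 2 with genistein, 5 to 4 with co-treatment and 1 to 2 for co-treatment against gemcitabine in MiaPaCa2, from 1 to 2 with gemcitabine, 0 to 1 with genistein and 0 to 2 for co-treatment against gemcitabine in PANC1, and from 4 to 5 for the difference of gemcitabine responses. With DESeq2 they were 1 with genistein in MiaPaCa2, and 3 with gemcitabine and 1 for co-treatment against gemcitabine in PANC1, and with its size factors 2 with gemcitabine in PANC1. On log2(FPKM + 1) they were 3 with co-treatment and 0 for co-treatment against gemcitabine in MiaPaCa2, 1 with co-treatment in PANC1, 6 between the untreated lines and 2 for the difference of gemcitabine responses, where 1 of these 2, TGFB2, was not among the 4 otherwise called. With all 16 libraries in one model they were 3 with co-treatment and 0 against gemcitabine in MiaPaCa2, and 3 with gemcitabine and 1 for co-treatment against gemcitabine in PANC1. Scaling by library size alone, which moved the median log2 change of all genes from 0.01 to 0.17 with co-treatment in PANC1, left 1 there, and no filter left 0 for co-treatment against gemcitabine in MiaPaCa2. The adjusted p alone changed no within-line count and gave 8 between the untreated lines. The replicate numbers gave no consistent pairing of the libraries. Correlations of deviations ran from -0.542 for control and co-treatment in PANC1 to 0.299 for control and gemcitabine there, and from -0.169 to 0.0395 after GC correction. The replicate block left 1 with co-treatment in PANC1 and 0 for co-treatment against gemcitabine in MiaPaCa2, changing no other count. Crossing the numbers of the co-treated replicates before the block, chosen after seeing the data, gave 2 for co-treatment against gemcitabine in MiaPaCa2 and 1 in PANC1. Of all genes it called 739 for this comparison in PANC1, beside 3 in the main fit. Leaving out single libraries gave 0 to 1 with genistein, 3 to 5 with co-treatment and 0 to 2 for co-treatment against gemcitabine in MiaPaCa2, 1 to 2 with gemcitabine and 1 to 3 with co-treatment in PANC1, and 2 to 4 for the difference of gemcitabine responses. The causes of these moves were not tested. On log2(FPKM + 1) the sign turned for SKIL with gemcitabine in MiaPaCa2 (-0.075), SMAD7 with co-treatment in PANC1 (0.10) and TGFBR1 in the difference of gemcitabine responses (0.13), and the last, which ran from -0.40 to 0.24 with single libraries left out, also without PANC1 control II or PANC1 gemcitabine I. Of 70 member values called under no setting, 41 changed sign under at least 1. The adjusted p for SMAD3 with gemcitabine in PANC1 ran up to 0.0334. With 2 libraries per group, changes of TGFBR2 and SMAD7 in MiaPaCa2 rest on few counts.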
